A study of Mus musculus with 9 samples.

Results

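The BCL2 family holds the proteins that decide whether the outer membrane of the mitochondrion stays closed or is opened in apoptosis. The 10 genes described here were taken by gene symbol: the pro-survival genes Bcl2, Bcl2l1 (BCL-XL) and Mcl1, the pore-forming genes Bax and Bak1, and the BH3-only genes Bad, Bid, Bcl2l11 (BIM), Bbc3 (PUMA) and Pmaip1 (NOXA). All 10 were found among the 24346 gene symbols of the data, and all 10 passed the filter on low values (1 FPKM or more in 3 or more of the 9 samples), as did 10686 genes in all. Bcl2 passed it only through the Tumor-macrophage samples, and Bak1 reached 1 FPKM in samples of every group.

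The study sorted macrophages from the lungs of C57BL/6 mice aged 10 weeks, 3 samples per population. Ctrl-AM are alveolar macrophages of control mice, which received the vehicle in the left lung, and Tumor-AM are alveolar macrophages of mice bearing an orthotopic lung tumor. Tumor-macrophage (TM) are the other macrophages of tumor-bearing lungs. The tumor was made with Lewis lung carcinoma (LLC), a C57BL/6 mouse cell line, here marked with tdTomato and injected in PBS with Matrigel. By the study's methods the mice were female and every population was sorted as CD45+ autofluorescent cells after enzymatic digestion of the lung, alveolar macrophages as Siglec-F+ and TM as Siglec-F- F4/80+ CD11b+. The model is therefore 1 implanted cell line. Nothing in the labels tells whether a Tumor-AM and a TM sample with the same number came from 1 mouse.

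As background, pro-survival BCL2 proteins bind and hold in check the pore formers BAX and BAK as well as the BH3-only proteins. BH3-only proteins are raised or activated by particular stresses, such as growth factor loss for BIM and DNA damage for PUMA and NOXA, and tip the balance toward pore formation, release of cytochrome c and caspase activation. Cell types differ in the pro-survival protein they rely on: mature lymphocytes are known for BCL2 and neutrophils for MCL1. MCL1 and BIM are strongly regulated after transcription, which RNA levels do not show.

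The genes are protein-coding and lie apart in the genome (GENCODE, GRCm38). The pro-survival genes are at chr1:106538178-106714274 on the minus strand (Bcl2), chr2:152780668-152831728 on the minus strand (Bcl2l1) and chr3:95658788-95663176 on the plus strand (Mcl1). Of the pore formers, Bax is at chr7:45461697-45466898 and Bak1 at chr17:27019810-27029009, both on the minus strand. Of the BH3-only genes, Bad is at chr19:6941861-6951899, Bcl2l11 at chr2:128126038-128162547 and Bbc3 at chr7:16308393-16318205, all on the plus strand, and Bid is at chr6:120891930-120916853 on the minus strand.

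Levels are given as FPKM, fragments scaled by transcript length and by the number of mapped reads, a per-length unit that allows levels of different genes to be compared. The depth recovered from the spacing of low values was 1.01e+07 to 1.27e+07 reads per sample. The summed level of 10 alveolar macrophage markers (among them Siglecf, Marco and Pparg) was 27222 to 32642 FPKM in Ctrl-AM, 23204 to 39986 FPKM in Tumor-AM and 266 to 582 FPKM in TM, and that of 4 monocyte-derived macrophage markers (among them Ccr2 and Itgam) was 7.57 to 9.18, 16.0 to 17.6 and 290.3 to 324 FPKM. TM and the alveolar macrophages thus carried the markers of their labels. Chil3 gave most of the first sum in Ctrl-AM and Tumor-AM (23048 to 28521 and 20425 to 36468 FPKM). Siglecf, Marco and Pparg were also lower in every TM sample than in every alveolar macrophage sample. Between Tumor-AM and Ctrl-AM, 2 of the 10 markers (Pparg and Fabp1) fell in the limma test given below. Of the 4 monocyte-derived markers, 3 (Ccr2, Ly6c2 and Itgam) rose. Among all genes tested, 3.18% fell and 7.11% rose. In bulk samples of sorted cells, a different share of contaminating or mixed cell types and a different amount of RNA per cell cannot be told apart. The 3 comparisons share samples, so they are given side by side and are not independent of each other.

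Within every population Mcl1 had the highest level of the 10 genes and Bax the next, and the ranges of these genes over the samples were separate. Mcl1 lay above 96.8% to 97.3% of all genes tested in the 3 populations. Bad came next in Ctrl-AM and Tumor-AM, whereas in TM the ranges of Pmaip1, Bad and Bcl2l1 overlapped in the places after Bax. Bcl2l1, Pmaip1 and Bcl2l11 followed in the alveolar macrophages with overlapping ranges between neighbors. In Ctrl-AM the order at the lower end was Bid, Bbc3, Bak1 and Bcl2, with separate ranges. In Tumor-AM the ranges of Bbc3, Bak1 and Bcl2 overlapped from 1 gene to the next. In TM Bcl2 stood above Bak1 and overlapped Bbc3.

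**Figure D1:**
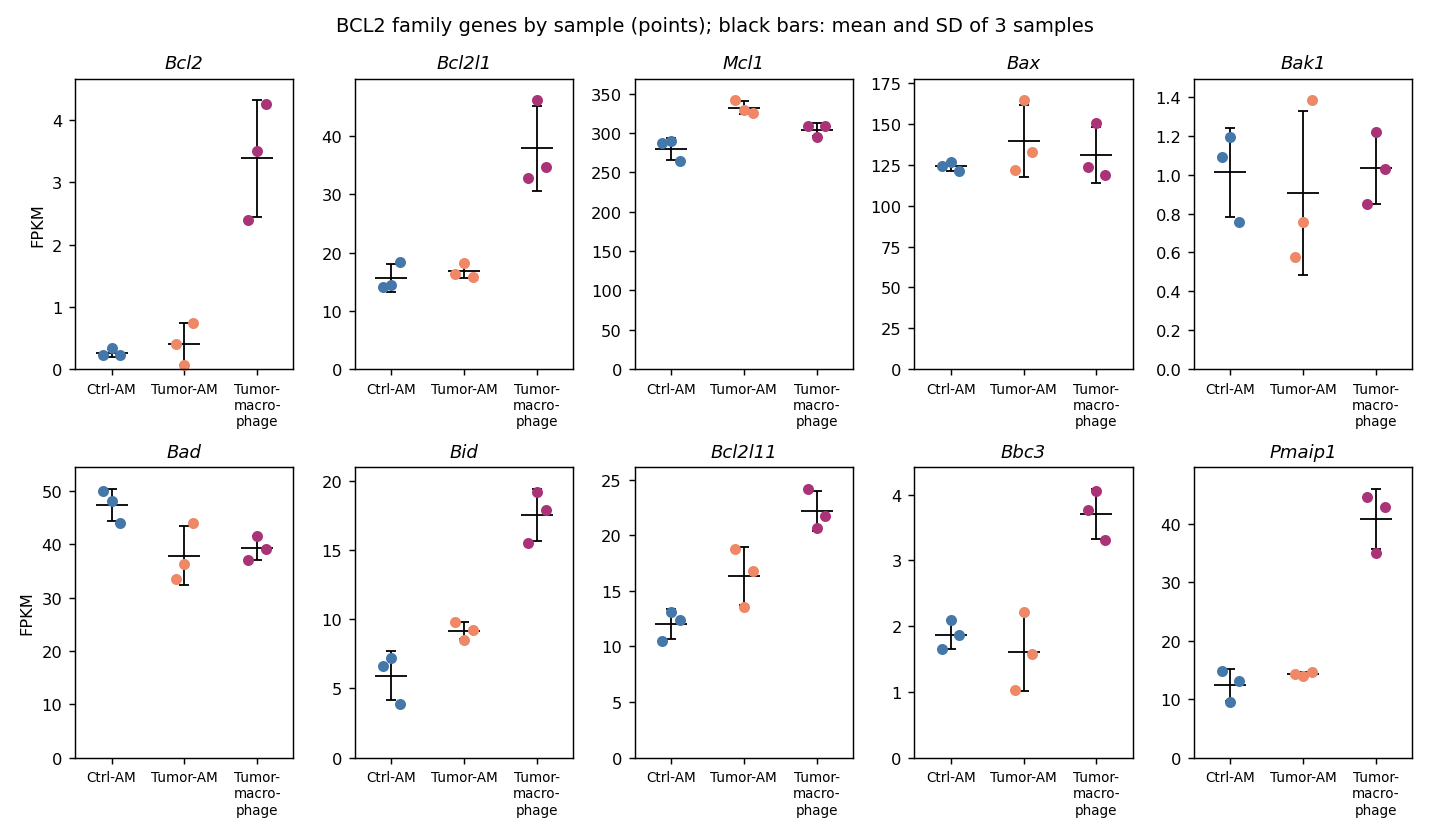
FPKM of the 10 genes (vertical axes, each from 0 and on its own scale) in the 3 samples of Ctrl-AM, Tumor-AM and Tumor-macrophage, with black bars for the mean and SD. The TM samples of Bcl2, Bcl2l1, Bid, Bcl2l11, Bbc3 and Pmaip1 all sit above the samples of both alveolar macrophage groups, while Bax and Bak1 overlap in all 3 groups.

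Changes were tested with limma on log2(FPKM + 1) over all 10686 genes with Benjamini-Hochberg adjustment and a threshold of 0.05. A log2 change on this scale understates the change of genes with low levels. The study's methods give 3 mice per population.

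Between TM and Tumor-AM, 6 of the 10 genes rose by limma's test and none fell (also none at an unadjusted p under 0.05), where 48.6% of all genes tested passed, 24.2% as higher and 24.4% as lower. The genes that rose were Bcl2, Bcl2l1, Bid, Bcl2l11, Bbc3 and Pmaip1, that is 2 of 3 pro-survival genes, 0 of 2 pore formers and 4 of 5 BH3-only genes. The median log2 change of the 10 genes was 0.64, against 0.00117 for all genes. Between TM and Ctrl-AM the same 6 genes rose and none fell (Bad fell at an unadjusted p under 0.05), against 54.8% of all genes passing, 27.7% as higher and 27.1% as lower, with a median log2 change of 0.77 for the 10 genes and -0.00824 for all genes. Of the 10 genes, 1 (Mcl1, higher) passed between Tumor-AM and Ctrl-AM, where 10.3% of all genes did, 7.11% as higher and 3.18% as lower. At an unadjusted p under 0.05, 4 genes passed there, Mcl1, Bid and Bcl2l11 as higher and Bad as lower. Leaving aside Bcl2, 5 of 9 genes passed in each comparison with TM and 1 of 9 between the alveolar macrophage groups. The split of all genes depended on the scaling: when FPKM were rescaled to a common sum (TPM), all genes had a median log2 change of -0.11, -0.08 and -0.22 for Tumor-AM against Ctrl-AM, TM against Tumor-AM and TM against Ctrl-AM, and the calls of the first and last turned from 760 higher and 340 lower to 475 and 824, and from 2960 and 2900 to 2130 and 4409. Quantile normalization gave 607 higher and 446 lower in the first. Changes of the 10 genes near 0 therefore depend on the scaling, while the 6 genes that rose in TM stayed higher under each scaling.

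Counted by samples, 7 of the 10 genes did not overlap between TM and Tumor-AM, 8 did not between TM and Ctrl-AM and 3 did not between Tumor-AM and Ctrl-AM, where 55.3%, 62.3% and 32.3% of all genes tested had groups that did not overlap. The 3 genes without overlap between the alveolar macrophage groups were Mcl1, Bid and Bcl2l11, each higher in all 3 Tumor-AM samples.

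**Figure D2:**
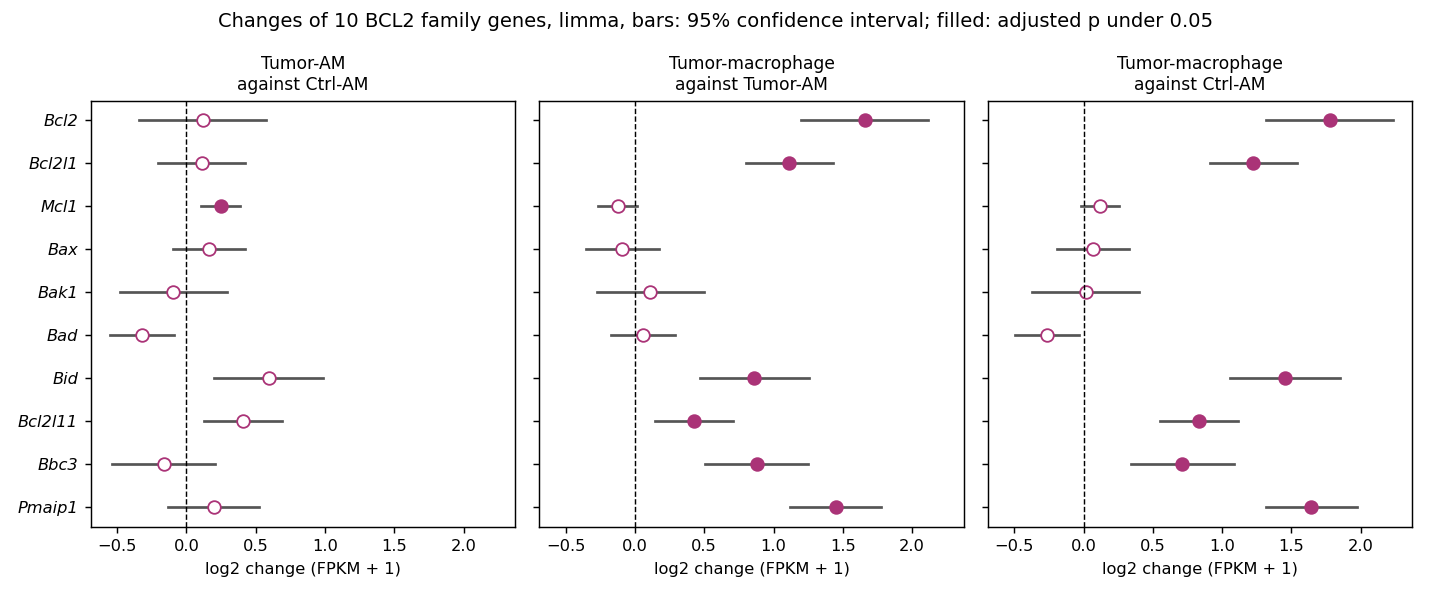
Log2 change of FPKM + 1 for each of the 10 genes (horizontal axis, points, with 95% confidence intervals as bars) in the 3 comparisons, filled where the adjusted p of limma was under 0.05. Filled points to the right of 0 are 6 genes in each comparison with Tumor-macrophage and Mcl1 alone between Tumor-AM and Ctrl-AM.

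Of the pro-survival genes, Bcl2 and Bcl2l1 rose in TM and Mcl1 did not. Bcl2, the founding member of the family, which protects lymphocytes above all, had 0.230, 0.337 and 0.216 FPKM in Ctrl-AM, 0.396, 0.0570 and 0.733 FPKM in Tumor-AM and 2.39, 3.50 and 4.25 FPKM in TM. Every TM sample was above every alveolar macrophage sample, and the Tumor-AM samples spread from the lowest value of all 9 to a value above all Ctrl-AM samples. The value of 0.0570 FPKM stands for about 2 to 5 reads, depending on the transcript, against about 69 to 346 reads in the TM samples. Bcl2 rose from Tumor-AM to TM (log2 change 1.66, SE 0.21, limma adjusted p = 6.62e-05) and from Ctrl-AM to TM (log2 change 1.78, adjusted p = 3.29e-05). Its means were 0.261 ± 0.066 FPKM in Ctrl-AM, 0.395 ± 0.338 FPKM in Tumor-AM and 3.38 ± 0.935 FPKM in TM (SD, n = 3 each). The ratio of means between TM and Tumor-AM was 8.56. It was 6.00 without Tumor-AM sample 2 and 14.9 without Tumor-AM sample 3. Since Bcl2 passed the filter only through TM, where it is high, it had to differ among the genes that passed. With no filter on low values the adjusted p of limma was 0.000376 against Tumor-AM and 0.000206 against Ctrl-AM. From Ctrl-AM to Tumor-AM its log2 change was 0.12 (95% confidence interval -0.34 to 0.58, limma adjusted p = 0.783).

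Markers of lymphocytes were also higher in TM. The summed level of 6 B cell markers was 12.7 to 17.1 FPKM in Ctrl-AM, 3.15 to 7.58 FPKM in Tumor-AM and 31.5 to 58.4 FPKM in TM. The sum of 10 T and NK cell markers was 8.26 to 11.7, 10.8 to 27.0 and 50.2 to 80.0 FPKM. Its largest parts in TM were Nkg7 (13.4 to 22.8 FPKM), Il7r (15.7 to 18.9 FPKM) and Cd4 (8.06 to 17.8 FPKM). Cd8a, Ncr1 and Klrb1c reached at most 1.57 FPKM there. Between TM and Tumor-AM, 4 of 4 B cell markers and 6 of 7 T and NK cell markers that could be tested rose. Among all genes tested, 48.6% passed in this comparison, 24.2% as higher. Cd4 passed the filter only through TM and so had to differ. Of the defining markers, Cd79a had 10.9 to 22.1 FPKM and Cd3e 1.14 to 3.13 FPKM in TM, and Pax5 was at 0 to 0.180 FPKM. From Ctrl-AM to Tumor-AM the B cell sum was lower without overlap (Cd79a log2 change -1.20, limma adjusted p = 0.0214). The T and NK cell sum and Bcl2 overlapped between these groups. Over TM samples 1, 2 and 3, Bcl2 had 2.39, 3.50 and 4.25 FPKM. The B cell sum was 58.4, 31.5 and 48.7 FPKM and the T and NK cell sum was 64.7, 50.2 and 80.0 FPKM. Neither sum had the order of Bcl2. Over Tumor-AM samples 1, 2 and 3, both sums had the order of Bcl2 (0.396, 0.0570 and 0.733 FPKM). They were 6.75, 3.15 and 7.58 FPKM for B cells and 21.7, 10.8 and 27.0 FPKM for T and NK cells. Nkg7 was the largest single part of the T and NK cell sum there, with 11.6, 3.30 and 11.9 FPKM. Over the Ctrl-AM samples, Bcl2 had 0.230, 0.337 and 0.216 FPKM. The T and NK cell sum had that order (10.6, 11.7 and 8.26 FPKM). The B cell sum did not (12.7, 17.1 and 13.2 FPKM). The part of these cells in the Bcl2 level was not tested. The sum of 5 dendritic cell markers was 10.7 to 11.6, 6.48 to 12.9 and 18.03 to 39.5 FPKM in the same order of groups, and that of 9 neutrophil markers was 146 to 175, 151 to 214 and 95.8 to 145 FPKM.

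**Figure D3:**
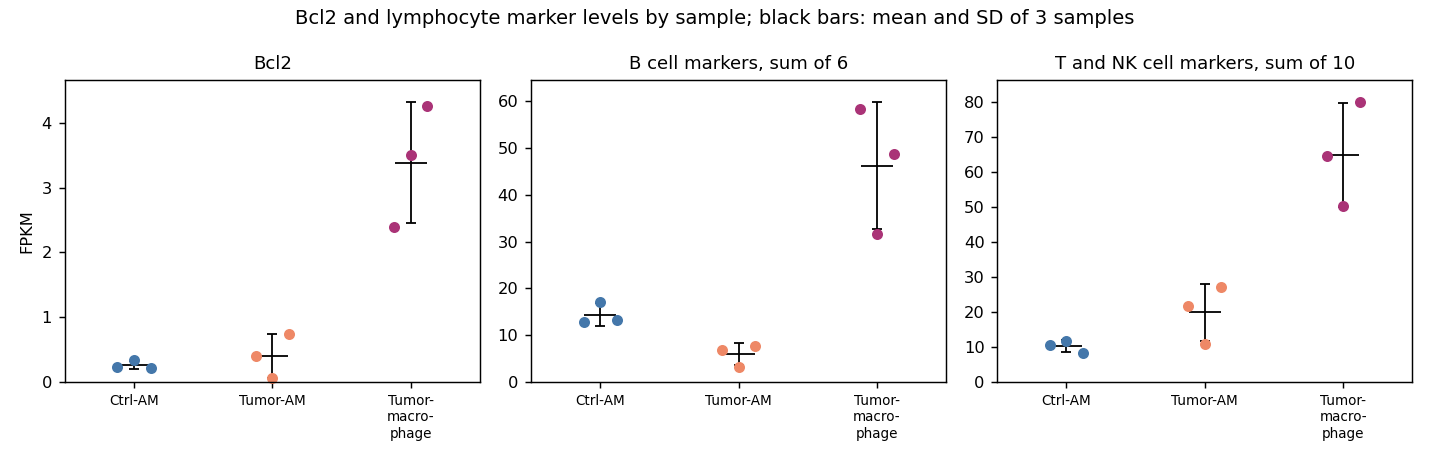
FPKM of Bcl2, the summed FPKM of 6 B cell markers and that of 10 T and NK cell markers (vertical axes, from 0) in each of the 9 samples, with the mean and SD of each group. All 3 measures are higher in every Tumor-macrophage sample than in every alveolar macrophage sample. The order of Bcl2 over samples is shared by both marker sums within Tumor-AM and by neither within Tumor-macrophage. Within Ctrl-AM the T and NK cell sum shares it and the B cell sum does not.

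Bcl2l1, whose long product BCL-XL also restrains BAX and BAK, had 14.0, 14.4 and 18.4 FPKM in Ctrl-AM, 16.4, 18.2 and 15.8 FPKM in Tumor-AM and 32.7, 46.2 and 34.8 FPKM in TM. The lowest TM sample was above the highest alveolar macrophage sample, and the alveolar macrophage groups overlapped. Its mean rose from 16.8 ± 1.22 FPKM in Tumor-AM to 37.9 ± 7.24 FPKM in TM (SD, n = 3 each, ratio 2.26; log2 change 1.11, SE 0.14, limma adjusted p = 7.50e-05), and from 15.6 ± 2.42 FPKM in Ctrl-AM (log2 change 1.22, adjusted p = 3.10e-05). Between the alveolar macrophage groups the log2 change was 0.11 (95% confidence interval -0.20 to 0.42, limma adjusted p = 0.692). FPKM per gene do not separate the long isoform from the short one, which has the opposite activity.

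Mcl1, a short-lived pro-survival protein, had 287, 289.6 and 264 FPKM in Ctrl-AM, 342, 329.7 and 325 FPKM in Tumor-AM and 309, 295 and 309 FPKM in TM. Every Tumor-AM sample was above every other sample, and every TM sample was above every Ctrl-AM sample. The span was small, since the highest of the 9 values was 1.29 times the lowest, and the SD of Mcl1 over the 9 samples on the log2 scale was larger than that of only 6.80% of the genes tested. From Ctrl-AM (280.2 ± 14.0 FPKM) to Tumor-AM (332 ± 8.54 FPKM; SD, n = 3 each) Mcl1 rose (log2 change 0.25, SE 0.063, limma adjusted p = 0.0346). This call was lost when any 1 of the 6 alveolar macrophage samples was left out, when FPKM were rescaled to a common sum (log2 change 0.11, limma adjusted p = 0.299), with the replicate block (adjusted p = 0.0537) and with a constant prior variance (adjusted p = 0.0899), and it held in 9 of 18 other settings. The sum of 5 fibroblast markers also differed between these groups, with 3.24 to 6.35 FPKM in Ctrl-AM and 7.84 to 50.1 FPKM in Tumor-AM. Most of it was Col3a1 (log2 change 1.99, limma adjusted p = 0.0272) and Dcn (1.58, adjusted p = 0.0666, not passing). Col1a1, Col1a2 and Pdgfra stayed under the filter. Their means were 0.579, 0.556 and 0.188 FPKM in Ctrl-AM and 0.558, 0.292 and 0.632 FPKM in Tumor-AM. The fibroblast sum was 12.6, 7.84 and 50.1 FPKM in Tumor-AM samples 1, 2 and 3, and the part of these cells in the Mcl1 level was not tested. Against TM (304 ± 8.17 FPKM) the log2 change was -0.13 from Tumor-AM (limma adjusted p = 0.124) and 0.12 from Ctrl-AM (adjusted p = 0.130).

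The pore formers passed in no comparison, nor at an unadjusted p under 0.05 in limma. Bax had 124, 127 and 121 FPKM in Ctrl-AM, 122, 165 and 133 FPKM in Tumor-AM and 124, 151 and 119 FPKM in TM, with overlapping groups and 1 high sample in each tumor group. The largest of its 3 log2 changes was 0.16 between Tumor-AM and Ctrl-AM (95% confidence interval -0.10 to 0.43, limma adjusted p = 0.448). Of the windows of 75 bases in the Bax transcript, 11.7% also occur in the gene model Gm45808, whereas none of the windows of the other 9 genes occurs in another gene's transcripts. Bak1 stayed between 0.578 and 1.38 FPKM in all 9 samples, and its log2 changes were -0.09, 0.11 and 0.02 (limma adjusted p = 0.794, 0.627 and 0.944 for Tumor-AM against Ctrl-AM, TM against Tumor-AM and TM against Ctrl-AM). Bax made up 99.2% to 99.3% of the summed FPKM of the pair on average in each population.

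Among the BH3-only genes, Pmaip1 had the largest log2 change between TM and Tumor-AM. Its product NOXA binds MCL1 and promotes its degradation. Pmaip1 had 14.9, 9.51 and 13.2 FPKM in Ctrl-AM, 14.3, 13.9 and 14.6 FPKM in Tumor-AM and 44.6, 35.0 and 42.9 FPKM in TM. All 3 TM samples were above all alveolar macrophage samples, and Tumor-AM lay within the range of Ctrl-AM. The rise from Tumor-AM (14.3 ± 0.336 FPKM) to TM (40.8 ± 5.16 FPKM; SD, n = 3 each) was 2.86-fold (log2 change 1.45, SE 0.15, limma adjusted p = 1.41e-05), and that from Ctrl-AM (12.5 ± 2.74 FPKM) was 3.26-fold (log2 change 1.64, adjusted p = 4.25e-06). The log2 change between the alveolar macrophage groups was 0.20 (limma adjusted p = 0.464).

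Bid links death receptors to the mitochondrion once caspase-8 has cut it. Its levels were 6.63, 7.21 and 3.90 FPKM in Ctrl-AM, 9.81, 8.53 and 9.24 FPKM in Tumor-AM and 15.5, 19.2 and 17.9 FPKM in TM. The 3 groups did not overlap, with Ctrl-AM lowest and TM highest. The mean was 5.91 ± 1.76 FPKM in Ctrl-AM, 9.19 ± 0.642 FPKM in Tumor-AM and 17.6 ± 1.87 FPKM in TM. Bid rose from Tumor-AM to TM (log2 change 0.86, SE 0.18, limma adjusted p = 0.00221) and from Ctrl-AM to TM (log2 change 1.45, adjusted p = 4.74e-05). The step from Ctrl-AM to Tumor-AM had a log2 change of 0.59 and did not pass (95% confidence interval 0.19 to 0.99, limma adjusted p = 0.0616); without Ctrl-AM sample 2 it was 0.74 and passed (adjusted p = 0.0460).

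Bcl2l11, whose product BIM binds all main pro-survival proteins, had 10.5, 13.1 and 12.4 FPKM in Ctrl-AM, 18.7, 13.5 and 16.8 FPKM in Tumor-AM and 24.2, 20.7 and 21.7 FPKM in TM. As for Bid, the 3 groups did not overlap and stood in the order Ctrl-AM, Tumor-AM and TM. The means were 12.03 ± 1.35, 16.3 ± 2.62 and 22.2 ± 1.81 FPKM (SD, n = 3 each). Bcl2l11 was higher in TM than in Ctrl-AM (log2 change 0.83, limma adjusted p = 0.000257) and than in Tumor-AM (log2 change 0.43, SE 0.13, adjusted p = 0.0181). The last call was lost without Tumor-AM sample 2 (log2 change 0.30, limma adjusted p = 0.0660), without TM sample 1 (0.36, adjusted p = 0.0634) and after rescaling to a common sum (0.34, adjusted p = 0.0670). The log2 change of 0.41 between Tumor-AM and Ctrl-AM did not pass (limma adjusted p = 0.0740), and without Tumor-AM sample 2 it was 0.53 and passed (adjusted p = 0.0271).

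Bbc3, the gene of PUMA and a target of p53, had 1.66, 2.098 and 1.86 FPKM in Ctrl-AM, 1.03, 2.21 and 1.57 FPKM in Tumor-AM and 3.76, 4.06 and 3.31 FPKM in TM. The TM samples were again above all others, and the alveolar macrophage groups overlapped. The mean of TM, 3.71 ± 0.377 FPKM, was 2.31 times that of Tumor-AM, 1.60 ± 0.592 FPKM (log2 change 0.88, SE 0.17, limma adjusted p = 0.00136), and 1.98 times that of Ctrl-AM, 1.87 ± 0.221 FPKM (log2 change 0.71, adjusted p = 0.00432).

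Bad, whose product is kept from the mitochondrion by survival kinases, moved otherwise. It had 49.98, 48.1 and 44.0 FPKM in Ctrl-AM, 33.5, 36.2 and 44.1 FPKM in Tumor-AM and 37.1, 41.6 and 39.2 FPKM in TM. All TM samples were below all Ctrl-AM samples, and 1 Tumor-AM sample reached the range of Ctrl-AM. The log2 change was -0.32 in Tumor-AM (limma adjusted p = 0.0809) and -0.26 in TM (adjusted p = 0.0528) against Ctrl-AM, and 0.06 between TM and Tumor-AM (adjusted p = 0.671). None of these passed. The difference between Tumor-AM and Ctrl-AM passed in 3 of 18 other settings, which were rescaling to a common sum (-0.46, limma adjusted p = 0.0176), quantile normalization (-0.37, adjusted p = 0.0469) and leaving out Tumor-AM sample 3 (-0.43, adjusted p = 0.0259). That between TM and Ctrl-AM passed in 6 of 18, with a log2 change of -0.50 after rescaling to a common sum (limma adjusted p = 0.00173).

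Bcl2l11 and Bbc3 are both known targets of FOXO factors, so the FOXO motif GTAAACA was among 8 motifs searched on both strands of the 250 bases before each start site in RefSeq's promoters (GRCm38.p6). Of 32851 promoters, 3.17% held it. Of the 10 genes, 9 had 15 promoters there, while Pmaip1 had no promoter there and was not searched for any motif. The FOXO motif was found in 1 promoter of Bcl2l11 and in 1 of Bbc3. The sites are shown with the motif in capitals, read along the plus strand of the genome, the first at chr2:128125800-128125829, before the gene and 227 bases before the start site, and the second at chr7:16310083-16310112, in an intron of the annotated gene, 167 bases before an inner start site, with the motif on the opposite strand.
Bcl2l11: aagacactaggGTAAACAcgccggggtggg
Bbc3: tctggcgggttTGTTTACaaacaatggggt
Both genes were among the 6 of the 10 genes that rose in TM, and a part of the motif in this was not tested. Foxo1 had 4.20, 4.06 and 4.10 FPKM on average in Ctrl-AM, Tumor-AM and TM and did not pass in any comparison. Foxo3 stayed under the filter, with 0.337, 0.512 and 1.13 FPKM. In the fit without that filter it rose from Tumor-AM to TM (log2 change 0.49, limma adjusted p = 0.0190) and from Ctrl-AM to TM (0.67, adjusted p = 0.00337). These 2 factors were chosen after their values were seen.

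Of the other motifs, the GC box GGGGCGGGG, present in 10.4% of all promoters, was found in 5 of the 15 promoters (of Bax, Bbc3, Bcl2, Bcl2l11 and Bid). The PU.1 motif GAGGAAGT (2.44% of all promoters) was found in 2 of the 15 (of Bad and Bak1), and the E2F motif TTTCGCGC (0.256%) in 1 (of Bcl2l1). The CRE motif TGACGTCA (1.55%), the AP-1 motif TGANTCA (6.75%), an NF-kB motif (0.356%) and a p53 motif (0.664%) were found for none of the 9 genes searched. Pmaip1 was not among these. A match describes letters in this window only.

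The 3 pro-survival genes summed to 296.0 ± 11.7 FPKM in Ctrl-AM, 349 ± 8.45 FPKM in Tumor-AM and 346 ± 2.36 FPKM in TM (SD, n = 3 each). Mcl1 held 94.6%, 95.1% and 88.1% of that sum, and Bcl2l1 held 5.29%, 4.81% and 10.96%. The lowest Bcl2l1 share in TM (9.51%) was above the highest in the alveolar macrophages (6.49%). Both the sum and the shares depend on which genes are counted. With Bcl2l2 and the Bcl2a1 copies a, b and d, which also encode pro-survival proteins, the sum was 919.5 ± 17.9, 865 ± 32.8 and 823 ± 21.4 FPKM. This wider sum was lower in Tumor-AM and TM than in Ctrl-AM, whereas the sum of the 3 genes was higher. From Tumor-AM to TM the means of both sums went down. Of this wider sum Mcl1 held 30.5%, 38.5% and 37.0% and Bcl2a1b 41.8%, 39.0% and 44.0%.

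The 5 BH3-only genes summed to 79.7 ± 4.15 FPKM in Ctrl-AM, 79.3 ± 6.13 FPKM in Tumor-AM and 123.6 ± 2.67 FPKM in TM. The 3 TM sums, 125, 120.5 and 125 FPKM, lay above the highest alveolar macrophage sum, 86.2 FPKM. Over Ctrl-AM, Tumor-AM and TM, Bad gave 59.4%, 47.7% and 31.8% of the sum, whereas Pmaip1 gave 15.7%, 18.03% and 33.0%. In TM no single gene led, since the shares of Pmaip1 (29.0% to 35.6%) and Bad (29.7% to 34.5%) overlapped. Sums over members that had been chosen as a family are given as a description.

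**Figure D4:**
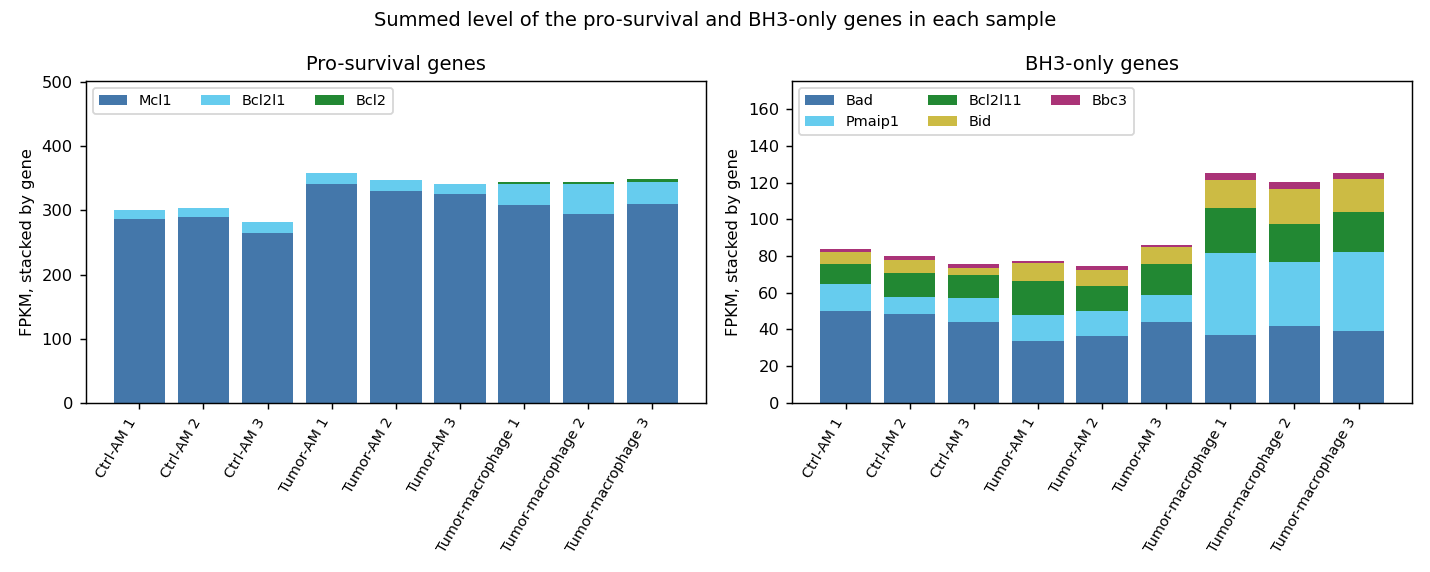
FPKM of the 3 pro-survival members (left) and the BH3-only genes (right) in each of the 9 samples, stacked by gene on axes from 0. Among Mcl1, Bcl2l1 and Bcl2 the bars are mostly Mcl1 in every sample (the Bcl2a1 copies are not drawn here), and the 3 Tumor-macrophage bars of the BH3-only genes stand at 120.5 to 125 FPKM against 74.4 to 86.2 FPKM in the alveolar macrophages.

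Of 16 other BCL2 family genes in the files, 10 passed the filter on low values. Among these, 0 rose and 3 fell between Tumor-AM and Ctrl-AM in limma (1 higher and 5 lower at an unadjusted p under 0.05), 2 rose and 4 fell between TM and Tumor-AM, and 2 rose and 5 fell between TM and Ctrl-AM. Bcl2l14 passed the filter only through TM. Without it, 1 rose and 4 fell, and 1 rose and 5 fell, in the last 2 of these comparisons. In the 3 comparisons in the order given, 10.3%, 48.6% and 54.8% of all genes tested passed. The most abundant were the copies of Bcl2a1, which encode the pro-survival protein A1. Bcl2a1b had a mean of 384 FPKM in Ctrl-AM, 337 FPKM in Tumor-AM and 362 FPKM in TM and did not pass in any comparison. Its range was above that of Mcl1 in Ctrl-AM and TM and overlapped it in Tumor-AM. Bcl2a1a fell from 122 FPKM in Ctrl-AM to 87.2 FPKM in Tumor-AM (-0.48 on the log2 scale, limma adjusted p = 0.00519) and to 47.6 FPKM in TM (-0.86 from Tumor-AM, adjusted p = 8.32e-06). Copies a, b and d share much of their sequence: 55.2% of the windows of 75 bases of Bcl2a1a, 68.4% of those of Bcl2a1b and 67.6% of those of Bcl2a1d occur in another gene, so that how reads were split between them is uncertain.

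Bcl2a1d fell from 117 to 90.3 and 67.0 FPKM in Ctrl-AM, Tumor-AM and TM (log2 change -0.43 from Tumor-AM to TM, limma adjusted p = 0.00340). Its step between the alveolar macrophage groups (-0.37, limma adjusted p = 0.0353) passed in 9 of 18 other settings and was lost when any 1 of the 6 alveolar macrophage samples, or TM sample 3, was left out (highest adjusted p 0.114). Bcl2a1c, of which 3.78% of windows are shared, fell from 14.6 FPKM in Ctrl-AM to 7.63 FPKM in Tumor-AM (-0.87 on the log2 scale, limma adjusted p = 0.0131), a call lost without Ctrl-AM sample 1 (adjusted p = 0.0608), and had 7.29 FPKM in TM.

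The mitophagy receptors Bnip3 and Bnip3l moved in opposite directions in TM. Bnip3, a gene known for its induction by hypoxia, had 24.6, 18.02 and 21.2 FPKM in Ctrl-AM, 18.2, 16.8 and 17.5 FPKM in Tumor-AM and 35.0, 88.0 and 61.8 FPKM in TM, with TM above the alveolar macrophages in every sample and spread widely (log2 change from Tumor-AM 1.66, SE 0.26, limma adjusted p = 0.000329). Bnip3l fell from 107.6 ± 1.73 FPKM in Tumor-AM to 38.4 ± 3.15 FPKM in TM (log2 change -1.47, SE 0.07, limma adjusted p = 5.64e-08). Neither passed between Tumor-AM and Ctrl-AM.

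Bok, a pore-forming relative of BAX, had 2.99, 1.92 and 1.81 FPKM in Ctrl-AM, 1.98, 6.12 and 9.12 FPKM in Tumor-AM and 0, 0.858 and 0.589 FPKM in TM. It fell from Tumor-AM to TM (log2 change -2.06, limma adjusted p = 0.00139) and was below Ctrl-AM as well (-1.16, adjusted p = 0.0294), the second call being lost without Ctrl-AM sample 1 or 2 or TM sample 1 or 3 (highest adjusted p 0.107). Bcl2l14 passed the filter only through TM, where it had 1.61, 2.17 and 1.15 FPKM against at most 0.258 FPKM in the alveolar macrophages, and it therefore had to differ. Bcl2l12 and Bcl2l13 ranged from 3.51 to 7.57 FPKM and from 4.03 to 6.38 FPKM and did not pass in any comparison. Bcl2l2, Bmf, Bik, Bcl2l10, Hrk and Bcl2l15 stayed under the filter, Bmf and Bcl2l2 reaching at most 1.24 and 0.976 FPKM and the other 4 at most 0.357 FPKM.

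**Figure D5:**
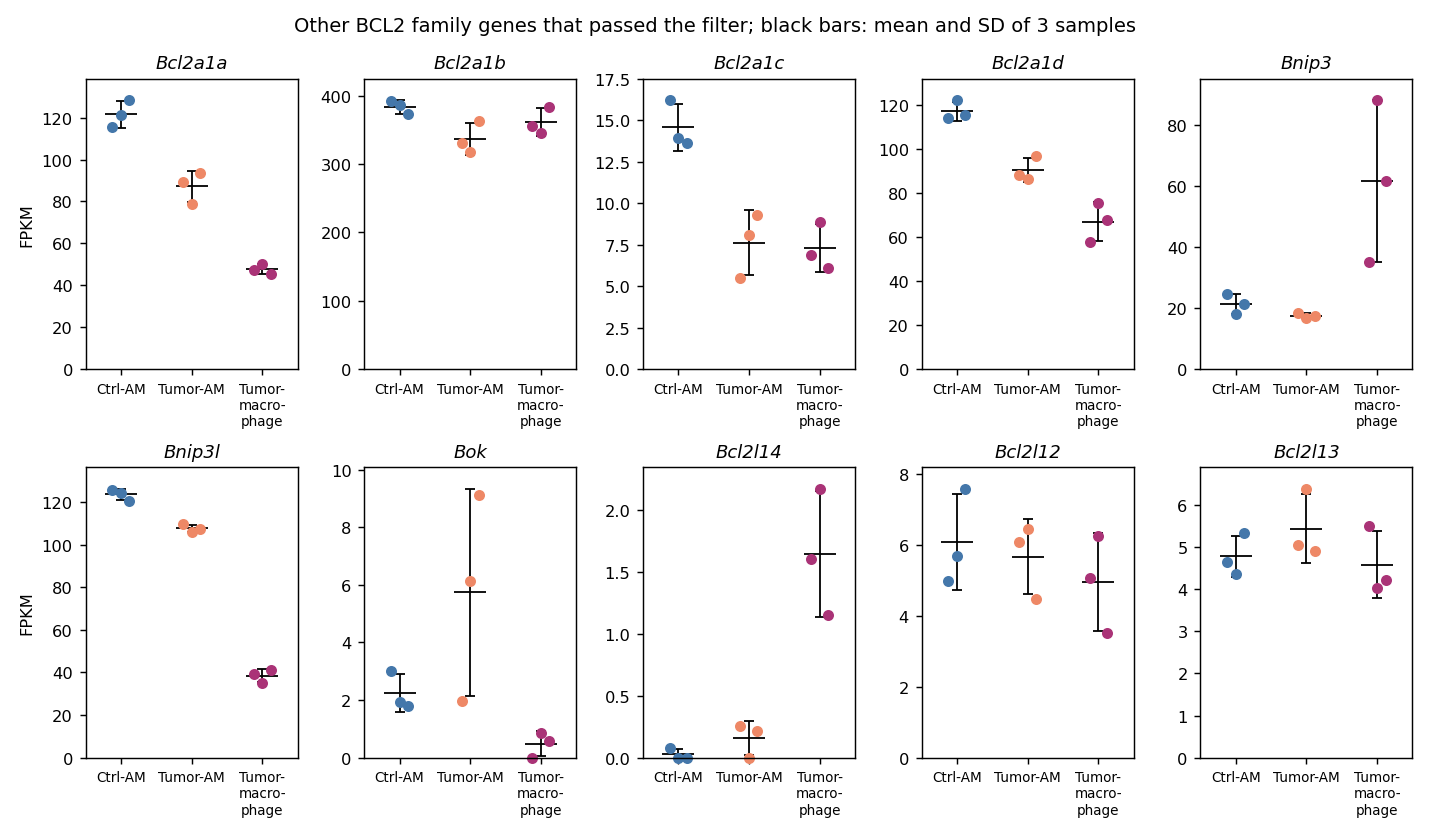
FPKM of the 10 other BCL2 family genes that passed the filter (vertical axes, each from 0 and on its own scale) in the 3 samples of each group, with the mean and SD. Bcl2a1a, Bcl2a1d and Bnip3l are lowest in the Tumor-macrophage samples, Bnip3 and Bcl2l14 are highest there, and Bcl2a1b, Bcl2l12 and Bcl2l13 overlap between Tumor-macrophage and both alveolar macrophage groups.

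Downstream of the pore, 17 genes of the mitochondrial pathway and the caspases were tested. Of these, 0 passed between Tumor-AM and Ctrl-AM in limma (1 higher and 1 lower at an unadjusted p under 0.05). Between TM and Tumor-AM 3 rose and 4 fell, and between TM and Ctrl-AM 3 rose and 6 fell. The shares of all genes tested that passed were 10.3%, 48.6% and 54.8% in the same order. Htra2, a mitochondrial protease that removes inhibitors of apoptosis, rose from 16.2 FPKM in Tumor-AM to 30.7 FPKM in TM (log2 change 0.89, limma adjusted p = 5.94e-05). Diablo, the gene of SMAC with a like role, fell from 37.4 to 24.3 FPKM (-0.60, adjusted p = 0.000364). The initiator caspase gene Casp9 fell from 12.1 to 7.20 FPKM (-0.68, limma adjusted p = 0.000733). Casp8, whose product cuts BID, was lower in TM than in Ctrl-AM (47.0 against 79.0 FPKM, log2 change -0.74, limma adjusted p = 6.84e-06).

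Of 10 inhibitors of apoptosis, 9 were tested, with 0 passing between Tumor-AM and Ctrl-AM in limma (1 higher at an unadjusted p under 0.05). In TM 3 were higher and 3 lower in each of its comparisons. Among all genes tested, 10.3% passed between Tumor-AM and Ctrl-AM, 48.6% between TM and Tumor-AM and 54.8% between TM and Ctrl-AM. Cflar, which blocks caspase-8 at death receptors, rose from 12.9 to 31.5 FPKM between Tumor-AM and TM (log2 change 1.25, limma adjusted p = 6.35e-05). Birc3 (cIAP2) rose from 17.7 to 42.9 FPKM (1.22, adjusted p = 2.10e-05). Naip2 fell from 14.2 to 7.89 FPKM (-0.79, limma adjusted p = 0.000115) and Naip6 from 2.95 to 1.39 FPKM (-0.76, adjusted p = 0.00587), both better known as sensors of bacterial proteins. Birc5 (survivin), which also serves cell division, was higher in TM than in Ctrl-AM (41.2 against 20.8 FPKM, log2 change 0.93, limma adjusted p = 0.00346).

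Of 10 death receptor genes, 8 were tested. From Ctrl-AM to Tumor-AM 3 rose and 0 fell in limma (the same counts at an unadjusted p under 0.05). Between TM and Tumor-AM 1 rose and 2 fell, and between TM and Ctrl-AM 2 rose and 1 fell. Over all genes tested, 10.3%, 48.6% and 54.8% passed in the same order. Ripk3 and Mlkl, the kinase and the effector of necroptosis, a form of death without caspases, both rose from Ctrl-AM to Tumor-AM. Ripk3 had 10.5, 10.5 and 8.06 FPKM in Ctrl-AM, 17.9, 26.2 and 20.8 FPKM in Tumor-AM and 49.6, 61.9 and 45.0 FPKM in TM, with no overlap between groups (log2 change 1.07, limma adjusted p = 0.00287 for the first step and 1.24, adjusted p = 9.13e-05 for the second). Mlkl had 3.11, 3.77 and 4.59 FPKM in Ctrl-AM, 9.66, 11.2 and 10.5 FPKM in Tumor-AM and 11.1, 18.7 and 11.2 FPKM in TM (log2 change from Ctrl-AM to Tumor-AM 1.25, limma adjusted p = 0.00290, and to TM 1.58, adjusted p = 4.17e-05).

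The TNF receptor gene Tnfrsf1a also passed between the alveolar macrophage groups (95.4 against 116 FPKM, log2 change 0.28, limma adjusted p = 0.0260), a call that was lost when any 1 of those 6 samples was left out (highest adjusted p over all settings 0.227). The adaptor gene Tradd fell from 27.1 FPKM in Tumor-AM to 16.5 FPKM in TM (log2 change -0.70, limma adjusted p = 0.00146), and Fas from 25.9 to 20.0 FPKM (-0.36, adjusted p = 0.0181), the latter not without Tumor-AM sample 3 or TM sample 3.

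Of 15 genes of the p53 network, 13 were tested, of which 3 rose and 1 fell between Tumor-AM and Ctrl-AM. In TM 3 rose and 6 fell in each of its comparisons. The all-gene shares that passed were 10.3% between Tumor-AM and Ctrl-AM, 48.6% between TM and Tumor-AM and 54.8% between TM and Ctrl-AM. The p53 targets did not move one way. Cdkn1a (p21) rose from 227 FPKM in Ctrl-AM to 337 FPKM in Tumor-AM (0.56 on the log2 scale, limma adjusted p = 0.00609) and was at 172 FPKM in TM (-0.95 from Tumor-AM, adjusted p = 1.55e-05). Gadd45a rose from 3.63 to 12.6 FPKM (1.52, limma adjusted p = 0.00134) and had 16.0 FPKM in TM (1.88 from Ctrl-AM, adjusted p = 1.37e-05). Mdm2, whose product degrades p53, rose from 35.8 to 53.7 FPKM (0.56, adjusted p = 0.0134), a call lost without Ctrl-AM sample 1 or 3 (highest limma adjusted p 0.0624).

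Perp, an epithelial p53 target, had 142 to 150.2 FPKM in Ctrl-AM, 91.6 to 119 FPKM in Tumor-AM and 0.155 to 0.425 FPKM in TM (log2 change from Tumor-AM -6.29, limma adjusted p = 9.39e-11). Its fall between the alveolar macrophage groups (-0.53, limma adjusted p = 0.0186) passed in 12 of 18 other settings and was lost without any 1 of the Ctrl-AM samples or without Tumor-AM sample 1 or 3 (highest adjusted p over all settings 0.178). Phlda3 fell from 31.7 FPKM in Tumor-AM to 2.41 FPKM in TM (-3.29, adjusted p = 5.89e-08), while Sesn1 rose from 1.68 to 11.1 FPKM (2.198, adjusted p = 2.80e-06).

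Of 17 genes for kinases, ligases and transcription factors that act on BCL2 family genes or proteins, 15 were tested. Between Tumor-AM and Ctrl-AM 1 rose, between TM and Tumor-AM 5 rose and 2 fell, and between TM and Ctrl-AM 6 rose and 2 fell. For comparison, 10.3%, 48.6% and 54.8% of all genes tested passed in the same order. Pim3, a kinase that inactivates BAD, had 31.7, 39.8 and 39.3 FPKM in Ctrl-AM, 80.8, 56.8 and 87.8 FPKM in Tumor-AM and 38.5, 27.1 and 38.8 FPKM in TM, so that only Tumor-AM stood apart (log2 change from Ctrl-AM 0.99, limma adjusted p = 0.00723, and from Tumor-AM to TM -1.08, adjusted p = 0.000542). Ddit3 (CHOP), a stress factor that induces Bcl2l11 and Bbc3, rose from 34.3 FPKM in Tumor-AM to 61.5 FPKM in TM (0.83, limma adjusted p = 2.12e-05). Mapk9 (JNK2) rose from 8.52 to 12.8 FPKM (0.54, adjusted p = 0.00125). Pim2 was higher in TM than in Ctrl-AM (5.52 against 2.87 FPKM, log2 change 0.74, limma adjusted p = 0.00366).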

How the data were processed

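Bulk RNA-seq libraries of 9 sorted macrophage samples (3 per group) were made with SMART-Seq HT and Nextera and sequenced as single-end reads of 75 bases. The authors aligned the reads to mm10 with TopHat2 2.1.1 and Bowtie2 and deposited FPKM per gene and sample from the Cufflinks suite (Cuffdiff 2.2.1 in the submitters' processing notes). The annotation, strand setting and treatment of reads with several matches are not given in the sources used here. FPKM were summed to 635560 to 785745 per sample and are not counts, so no count test was used. Relative depth was read from the spacing of low values of 120 genes: 78.1% to 81.3% of ratios lay on a whole-read grid, against at most 4.32% on a displaced grid. Approximate reads rest on this estimate.

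Genes reaching 1 FPKM in 3 or more of the 9 samples were tested with limma 3.58.1 in R 4.3.3 (intensity trend, all 9 samples sharing the spread, two-sided, Benjamini-Hochberg over all 10686 genes) on log2(FPKM + 1). Tables and figures were made with Python 3.11.15, numpy 2.4.6, pandas 2.3.3 and matplotlib 3.10.9. The fit was tested on simulated data. Named are all 10 members, every detected gene of the other BCL2 family list and, of each other list, the up to 4 genes with the largest absolute log2 change among those that passed in a comparison, some of which are not reported here. The members and lists were chosen with earlier results of these data known. Counts of non-overlap compare the lowest and highest sample. Other settings were a pseudocount of 0.1, no filter, a filter of 5 FPKM, rescaling to TPM, median-ratio scaling, quantile normalization, a constant prior variance, only the 2 groups compared, the replicate number as a block, and each of the 9 samples left out, 18 in all. Shared windows and gene places come from GENCODE (GRCm38), promoters from RefSeq (GRCm38.p6). P-values measure the spread between these samples.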

Additional observations from a re-analysis of the deposited data

How the results depend on the processing

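Of the 10 genes, 6 passed in each comparison with TM, and with 1 sample left out 5 to 6 passed between TM and Tumor-AM and 6 to 7 between TM and Ctrl-AM. Between Tumor-AM and Ctrl-AM the count of 1 became 2 with quantile normalization, 0 with a constant prior variance, 0 with the replicate block, and 0 to 1 with a sample left out. Over all genes this comparison gave 1100 calls and 538 to 1254 with a sample left out (538, 690 and 549 without Ctrl-AM sample 1, 2 and 3, 733 and 674 without Tumor-AM sample 1 and 3), against 4701 to 5007 for TM and Tumor-AM and 5214 to 5863 for TM and Ctrl-AM. Replicate numbers were not taken as pairs, since the labels do not state pairs. Same-numbered deviations had a mean correlation of 0.0547, against -0.0273 for different numbers. Of same-numbered pairs 2 of 9 exceeded 0.1, and of the others 0 of 18 did. Of the 9 samples, 7 correlated best with their own number. With the replicate block 0, 6 and 6 of the 10 genes and 938, 5069 and 5772 genes passed in the 3 comparisons. The 6 genes higher in TM kept their direction in every setting in which they were tested.

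The log2 changes that turned direction had not passed in the main analysis. Between Tumor-AM and Ctrl-AM, Bcl2l1 was at -0.0211 with TPM, and with a sample left out Bcl2 ranged from -0.0525 to 0.304, Bak1 from -0.268 to 0.0298 and Bbc3 from -0.329 to 0.0031. Between TM and Tumor-AM, Bad was at -0.0369 with TPM, and with a sample left out Bad ranged from -0.0244 to 0.168, Bak1 from -0.0133 to 0.284 and Bax from -0.194 to 0.0320. Between TM and Ctrl-AM, Mcl1 was at -0.12, Bax at -0.16 and Bak1 at -0.12 with TPM and Bak1 at -0.0647 with quantile normalization, and with a sample left out Bax ranged from -0.0334 to 0.136 and Bak1 from -0.0787 to 0.0819. Mcl1 passed as lower in TM than in Tumor-AM with TPM (-0.22) and quantile normalization (-0.20). With a filter of 5 FPKM, 7 of the 10 genes were tested, without Bcl2, Bak1 and Bbc3. The cause of these changes was not tested. The ratio of Bcl2 means between TM and Tumor-AM ranged from 6.00 to 14.9 with a sample left out; this and the count without Bcl2l14 were chosen after seeing the data. Bcl2 rested on few reads in the alveolar macrophages, which limits the precision of its values there.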
